A study of Mus musculus with 73 samples.

Results

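Loss of CD33 was compared between 2 ages in microglia of 5xFAD mice, which carry mutant human transgenes under the neuronal Thy1 promoter and develop amyloid plaques. The quantity described is a difference of 2 differences. For each gene, the log2 difference between 5xFAD;CD33-/- and 5xFAD microglia was taken at 8 months and again at 4 months, and the 4-month value was subtracted from the 8-month value. A positive value means that the knockout effect lay higher at 8 months, and a negative value that it lay lower. The libraries were chosen by genotype, age and deposited table, and 36 of the 73 libraries in the series entered. Those that lack TREM2 or have no 5xFAD transgenes were left out. Also left out were further 5xFAD libraries at 8 months, deposited in a separate table with TREM2 knockout libraries. The 36 comprise 12 libraries of 5xFAD;CD33-/- and 11 of 5xFAD microglia at 8 months, and 4 of 5xFAD;CD33-/- and 9 of 5xFAD microglia at 4 months. All 36 carry the 5xFAD transgenes, all are labelled C57BL/6, and none had a treatment in the labels. The 5xFAD;CD33-/- group is called the knockout below.

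CD33 is an inhibitory receptor of myeloid cells that binds sialic acid and signals through ITIM motifs and the phosphatases these recruit. In the human brain, variants at CD33 have been linked to the risk of Alzheimer's disease, and in mouse microglia the receptor restrains uptake of amyloid. TREM2 signals in the opposite direction, through the adaptor TYROBP, and is needed for the switch from homeostatic to disease-associated microglia (DAM), cells that gather at plaques with high levels of lipid, lysosomal and adhesion genes.

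Microglia were sorted on CD11b and CD45 before poly(A) RNA sequencing, and each library held about 26750000 to 79650000 reads assigned to genes. Levels are RPKM, which divide reads by gene length and library depth, effects are on the log2(RPKM + 0.5) scale, and a gene is called at an adjusted p under 0.05. The labels do not say that each library is a separate animal, so the p-values measure the spread between libraries. The 8-month and 4-month libraries were deposited in separate tables, so that age and table cannot be told apart in any difference between the ages. The 2 effects share no library.

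Cd33 (chr7:43524216-43544428 in GRCm38, minus strand) checked the labels. It lay at 0.03 to 0.60 RPKM in 11 of the 12 knockout libraries at 8 months, with a median of 0.08 over the 12, while replicate 7 held 19.1 RPKM. In 5xFAD microglia of that age Cd33 had a lowest value of 102, a median of 121 and a highest of 150 RPKM. The 4 knockout libraries at 4 months held 0.21, 0.05, 0.06 and 0.10 RPKM, and the 9 5xFAD libraries 115, 137 and 152 RPKM as the lowest, median and highest. Groups did not overlap at either age, and replicate 7 of the 8-month knockout stood apart from its label by holding Cd33. One knockout library at 4 months, replicate 2, held both Xist at 14.02 RPKM and the Y-linked Ddx3y at 4.58 RPKM. Knockout replicates 2 and 3 at 4 months, with 1125 and 1164 RPKM summed over 12 endothelial markers, stood apart from replicates 1 and 4, with 487 and 474 RPKM. The 8 microglia markers summed to 10127 to 15905 RPKM across the 36 libraries. Trem2 averaged 816 ± 150 RPKM in knockout and 900 ± 174 RPKM in 5xFAD microglia at 8 months (SD, n = 12 and 11). At 4 months it averaged 763 ± 62.1 RPKM in knockout and 740 ± 90.4 RPKM in 5xFAD microglia (SD, n = 4 and 9), and its difference of effects was -0.18 ± 0.17 (SE).

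No gene of the 12812 tested was called for a different knockout effect at 8 than at 4 months (0%). The smallest adjusted p was 0.128, shared by Klk8, Ftl1, Tgds and the small-RNA gene model Gm24644, the last named after its values were seen. At an unadjusted p under 0.05, 776 genes lay apart (6.06%), of which 489 were positive (3.82%) and 287 negative (2.24%). limma's voom fit on recovered read numbers also called none, with 784 genes under an unadjusted 0.05. Other settings gave calls: 78 genes, 18 higher and 60 lower, with the number in the library titles as a term, and 581, 367 higher and 214 lower, with array weights, which weight libraries by how closely they follow the fit. There were 2 calls with no filter on low values, 4 with the ages fitted separately and 3 with all groups in the fit. For 11519 genes, 89.9% of those tested, the 95% interval of the difference lay within 1 log2 unit of 0 on both sides, and the median SE was 0.14. The median difference over all genes was 0.01, and 46.4% of the genes lay below 0. Without knockout replicate 7 at 8 months, the one that held Cd33, 2 genes were called, Klk8 and Ftl1, and without knockout replicate 2 at 8 months 1 gene, Klk8.

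The effects at single ages gave calls, and their numbers rested on single libraries and on the fit. At 8 months 292 genes were called (2.28%), 254 higher and 38 lower in the knockout. At 4 months 97 genes were called (0.757%), 46 higher and 51 lower. With the title number as a term the numbers were 431 and 1888 at 8 and 4 months, with array weights 641 and 4819, and with the endothelial marker level as a term 24 and 28. With 1 library left out, the 8-month number ran between 27 and 753. It was 30, 32, 34, 35, 32, 128 and 81 without knockout replicate 3, 5, 7, 11, 12, 1 or 6 of that age, and 753 and 741 without replicate 4 or 8. It was 37, 31, 27, 28, 92, 142, 77 and 485 without 5xFAD replicate 4, 5, 6, 7, 1, 9, 10 or 2 of that age, and 551 without 5xFAD replicate 1 at 4 months. The 4-month number ran between 22 and 1161. It was 22, 22, 282 and 1040 without knockout replicate 2, 3, 1 or 4 of that age, and 48, 35, 64, 37 and 1161 without 5xFAD replicate 11, 7, 6, 13 or 1. Over all genes tested, the 2 effects had a Pearson correlation of 0.65 across genes, which are not independent replicates, and 68.2% of genes had the same sign at both ages.

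**Figure D1:**
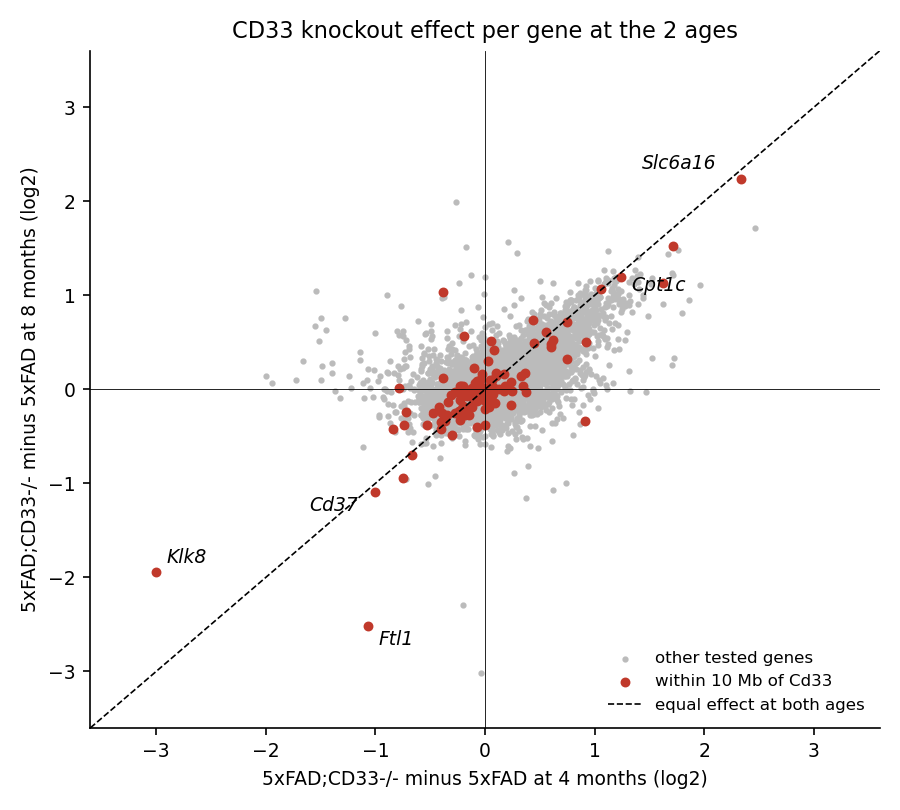
Each point is 1 gene, with the log2 knockout effect at 4 months on the x axis and at 8 months on the y axis, and genes within 10 Mb of Cd33 in red. Points near the diagonal have the same effect at both ages. Klk8 lies above it and Ftl1 below it, while Cd37, Slc6a16 and Cpt1c lie close to it, and Cd33 and Ftl2 fall outside the axes.

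Genes on chromosome 7 around Cd33 were called in larger shares than genes elsewhere. A window of 10 Mb to either side of Cd33 held 127 tested genes, of which 29 were called at 8 months (22.8%) and 16 at 4 months (12.6%), against 2.07% and 0.639% of the genes elsewhere. None was called for the difference between ages, and 9 lay under an unadjusted 0.05 (7.09%). Most calls lay close to the deleted gene: 24 genes at 8 months and 16 at 4 months were among the 69 within 2 Mb, while 2 and 0 were among the 28 at 5 to 10 Mb. Leaving out 1 library gave 18 to 38 such calls at 8 months and 13 to 30 at 4 months. The 8-month number was 18, 19, 19 and 19 without 5xFAD replicate 6 or 7 or knockout replicate 12 or 3, and the 4-month number was 27 without knockout replicate 4 and 30 without 5xFAD replicate 1. Of the 29 neighbours other than Cd33 that were called at either age, all 29 shared their sign at both ages. Their differences between ages ran between -1.45 and 1.06, with a median absolute size of 0.09, and 27 of the 29 stayed within 0.5 log2 units. The exceptions were Klk8 and Ftl1.

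Klk8, which encodes the secreted serine protease kallikrein 8 (neuropsin), lies 0.253 Mb from Cd33 (chr7:43797577-43803826 in GRCm38, plus strand). At 8 months its lowest, median and highest levels were 6.09, 10.2 and 20.01 RPKM in knockout and 33.2, 41.9 and 57.0 RPKM in 5xFAD microglia. In the 4-month libraries Klk8 was at 10.3, 8.15, 7.02 and 6.86 RPKM in the knockout, and the 5xFAD libraries ran over 58.0, 65.1 and 87.5 RPKM. The knockout libraries lay below all 5xFAD libraries at both ages, and the highest knockout value at 8 months was that of replicate 7, the library that held Cd33. The knockout means were 10.9 ± 3.65 RPKM at 8 months and 8.09 ± 1.60 RPKM at 4 months (SD, n = 12 and 4). The 5xFAD means lay at 42.3 ± 7.46 RPKM and 68.0 ± 8.59 RPKM at these ages (SD, n = 11 and 9). The effect was -1.95 ± 0.12 at 8 months (SE, adjusted p = 6.68e-14) and -3.005 ± 0.18 at 4 months (SE, adjusted p = 2.26e-14). The difference was 1.06 ± 0.21 (SE, 95% interval 0.62 to 1.496, unadjusted p = 2.01e-05, adjusted p = 0.128 over all genes), and it stayed between 0.98 and 1.18 with any 1 library left out. Its adjusted p passed the threshold in other fits, at 0.00390 with a separate fit for each table, 0.0403 with all groups of both tables in the fit, 0.0282 with the number in the library titles as a term and 0.00355 with array weights. These title numbers are the only batch label. Within the 8 of them that hold both genotypes at 8 months the effect ran between -2.58 and -1.61, and within the 3 at 4 months between -3.16 and -2.97, so that the ranges did not overlap. At 4 months 5xFAD replicates 1, 4, 6, 8 and 11 share no title number with a knockout library. They do not enter the 4-month effect within title numbers or with the title number as a term. Klk6 was the one other kallikrein among 12 listed that had values high enough to test, and its difference was -0.43 ± 0.34 (SE).

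Ftl1 encodes the ferritin light chain, a subunit of the iron storage shell, and lies 1.91 Mb from Cd33 (chr7:45457944-45459884 in GRCm38, minus strand). Ftl2 is annotated as a processed pseudogene on another chromosome (chr4:125504288-125504839 in GRCm38, plus strand), and the 2 genes moved in opposite directions at both ages. Over 552 aligned bases they differ at 7, an identity of 98.7%, and 273 of the 503 windows of read length, 50 bases, are the same in both (54.3%). Reads from such windows cannot be assigned to one of them by sequence, so the split of reads between the pair is uncertain.

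At 8 months Ftl1 ran over 23.5, 34.1 and 73.5 RPKM (lowest, median, highest) in knockout and 131, 198 and 373 RPKM in 5xFAD microglia. The 4 knockout libraries at 4 months held 118, 91.9, 90.5 and 133 RPKM, and the 5xFAD libraries ran over 172, 231 and 260 RPKM. The knockout lay below 5xFAD without overlap at both ages, and all 4 knockout libraries at 4 months lay above all 12 at 8 months, whose highest was again replicate 7. Mean levels were 38.2 ± 15.3 RPKM in knockout and 219 ± 77.7 RPKM in 5xFAD microglia at 8 months, and 109 ± 20.97 RPKM in knockout and 227 ± 25.4 RPKM in 5xFAD microglia at 4 months (SD, n = 12, 11, 4 and 9). The effect was -2.52 ± 0.17 at 8 months (SE, adjusted p = 7.93e-13) and -1.07 ± 0.25 at 4 months (SE, adjusted p = 0.0354), a call that held in 30 of the 36 fits with 1 library left out. The difference was -1.45 ± 0.31 (SE, 95% interval -2.07 to -0.83, unadjusted p = 3.60e-05, adjusted p = 0.128 over all genes), and ran between -1.54 and -1.34 with any 1 library left out. It was called with a separate fit for each table (adjusted p = 0.00390), with all groups in the fit (adjusted p = 0.0403), with the title number as a term (adjusted p = 0.0349) and with array weights (-1.24, adjusted p = 0.0124). Within title numbers the effect ran between -2.94 and -1.29 at 8 months and between -1.11 and -0.90 at 4 months.

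Ftl2 ran over 9.08, 30.4 and 41.7 RPKM in knockout and 0, 0.06 and 2.57 RPKM in 5xFAD microglia at 8 months. In knockout microglia at 4 months Ftl2 stood at 39.8, 26.8, 25.4 and 28.1 RPKM, and the 5xFAD libraries ran over 0, 0.04 and 0.13 RPKM. The groups did not overlap at either age, and 5xFAD replicate 1 at 8 months, with the 2.57 RPKM, stood above the other 5xFAD libraries. The fitted effects, which depend on the pseudocount because 5xFAD microglia were near 0, were 5.09 at 8 months and 5.81 at 4 months, with a difference of -0.72 ± 0.44 (SE, adjusted p = 0.856). Summed over the pair, the level averaged 65.6 ± 12.5 RPKM in knockout and 220 ± 77.8 RPKM in 5xFAD microglia at 8 months. The sum at 4 months was 158, 119, 116 and 162 RPKM in the knockout libraries and averaged 227 ± 25.3 RPKM in 5xFAD microglia (SD, n = 9). The summed level in the knockout lay below 5xFAD without overlap at both ages, by 3.35-fold at 8 months and 1.64-fold at 4 months as ratios of means. Each RPKM is divided by its own gene's length, so the sum still depends on the split of reads. Over the 15 genes of a ferritin and iron-handling list, 7 differences lay below 0, with a median of 0.02 beside 0.01 over all genes tested.

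**Figure D2:**
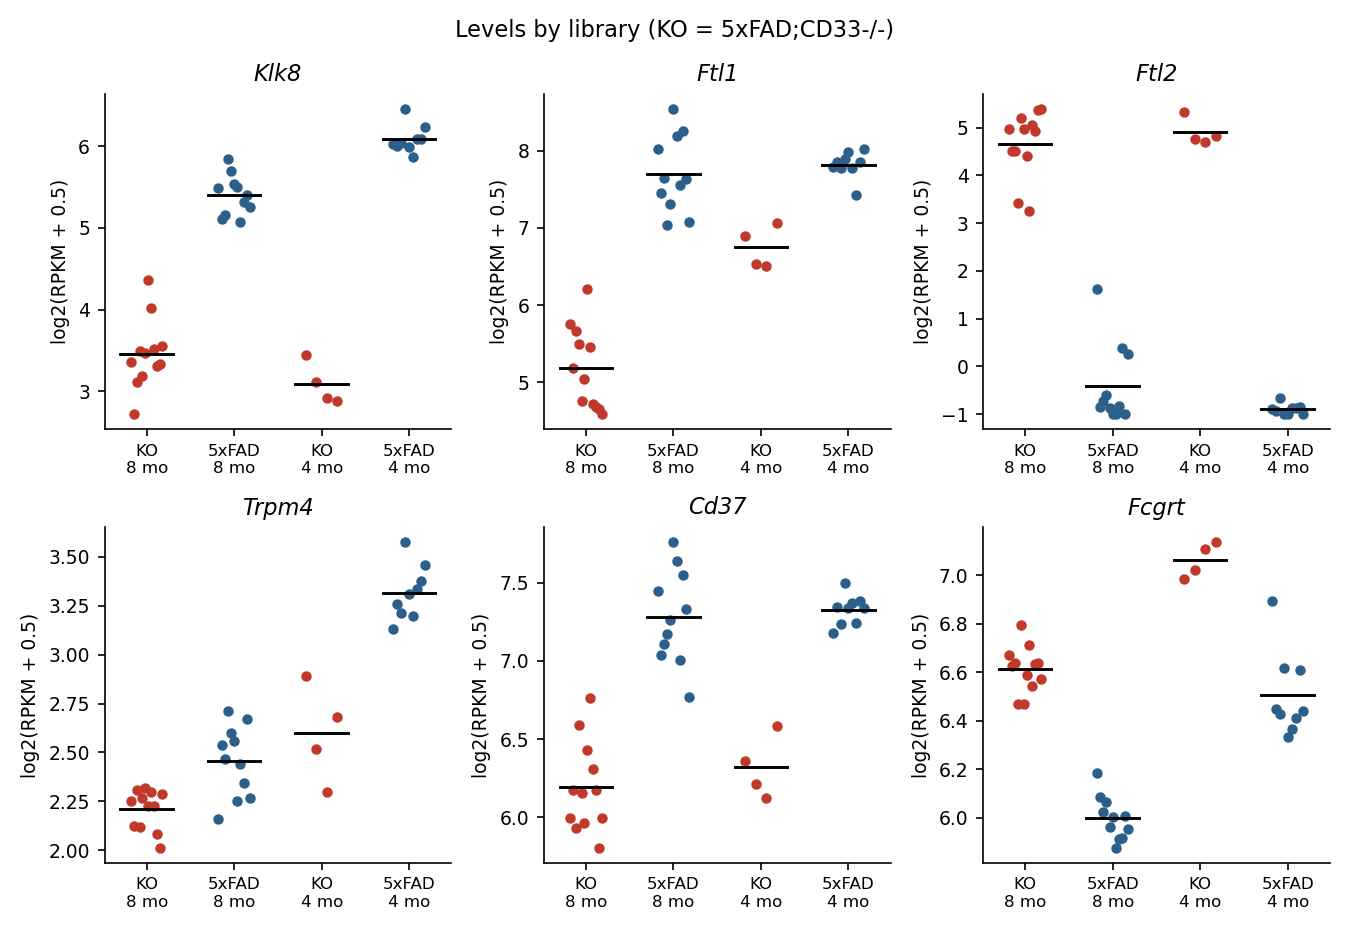
Levels on the log2(RPKM + 0.5) axis for 6 genes, 1 point a library and a line at each group's mean, in the order knockout at 8 months, 5xFAD at 8 months, knockout at 4 months, 5xFAD at 4 months. The step between knockout and 5xFAD is smaller at 8 than at 4 months for Klk8 and Trpm4, larger for Ftl1, and alike for Cd37 and Fcgrt.

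Trpm4, which encodes a cation channel gated by calcium and lies 1.76 Mb from Cd33, had the next smallest p among the neighbours. It ran over 3.54, 4.23 and 4.49 RPKM in knockout and 3.97, 5.02 and 6.06 RPKM in 5xFAD microglia at 8 months. The younger knockout libraries held 6.92, 5.22, 4.43 and 5.91 RPKM, and the 5xFAD libraries ran over 8.27, 9.43 and 11.4 RPKM. The groups overlapped at 8 months and not at 4 months. Its effect was -0.24 ± 0.07 at 8 months (SE, adjusted p = 0.0419) and -0.72 ± 0.09 at 4 months (SE, adjusted p = 6.70e-06), and the difference of 0.48 ± 0.11 had an adjusted p of 0.272. It was called with the title number as a term (0.56, adjusted p = 0.0339) and with array weights (0.55, adjusted p = 0.00355). The 8-month call held in 21 of the 36 fits with 1 library left out. 2410002F23Rik had a difference of 0.42 ± 0.13 (SE, adjusted p = 0.582). Both genes were lower in the knockout at both ages.

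Some neighbours had effects of the same sign whose difference between ages had an interval that includes 0. Cd37, a tetraspanin of leukocytes 1.69 Mb from Cd33, ran over 55.5, 71.2 and 108 RPKM in knockout and 108, 153 and 216 RPKM in 5xFAD microglia at 8 months. Its knockout libraries at 4 months held 81.6, 73.8, 69.3 and 95.3 RPKM, against 144, 161 and 181 RPKM as the lowest, median and highest in 5xFAD microglia. Knockout libraries lay below 5xFAD libraries at both ages, by a narrow margin at 8 months. The effects were -1.09 ± 0.10 at 8 months and -1.01 ± 0.15 at 4 months (SE), and the difference of -0.08 ± 0.18 had a 95% interval of -0.45 to 0.28. Irf3, a transcription factor of the interferon pathway, had effects of -0.37 at 8 months and -0.53 at 4 months.

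As with Ftl2, Slc6a16, a member of the sodium-coupled transporter family, was higher in the knockout. The copy of this name placed on chromosome 7, 1.70 Mb from Cd33, ran over 2.09, 2.52 and 4.35 RPKM in knockout and 0, 0.08 and 1.26 RPKM in 5xFAD microglia at 8 months. At 4 months the knockout libraries held 2.83, 1.89, 1.65 and 2.23 RPKM and no 5xFAD library exceeded 0.07 RPKM. The highest 5xFAD value at 8 months belonged to replicate 1, as it did for Ftl2. Its fitted effects were 2.24 at 8 months and 2.33 at 4 months, with a difference of -0.09 ± 0.26 (SE). They depend on the pseudocount because 5xFAD microglia were near 0. The ratio of mean RPKM was 11.6-fold at 8 months and 109-fold at 4 months, and the difference was -0.64 with a pseudocount of 0.1 and -2.04 with voom, none of them called. Cpt1c, which encodes the brain form of carnitine palmitoyltransferase, ran over 1.28, 1.62 and 1.96 RPKM in knockout and 0.16, 0.40 and 0.85 RPKM in 5xFAD microglia at 8 months. It held 1.74, 2.25, 2.64 and 1.98 RPKM in the knockout libraries at 4 months, against 0.30 to 1.06 RPKM in 5xFAD microglia, and its effects were 1.19 and 1.24. Fcgrt, the neonatal Fc receptor, which recycles immunoglobulin G and albumin, lay at 88.0 to 111 RPKM in knockout and 58.3 to 72.2 RPKM in 5xFAD microglia at 8 months. At 4 months it lay at 126, 129, 137 and 140 RPKM in the knockout libraries and at 80.1 to 118 RPKM in 5xFAD microglia. Both genes were higher in all knockout libraries than in any 5xFAD library at each age, and the difference for Fcgrt was 0.06 ± 0.09 (SE, 95% interval -0.13 to 0.24).

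**Figure D3:**
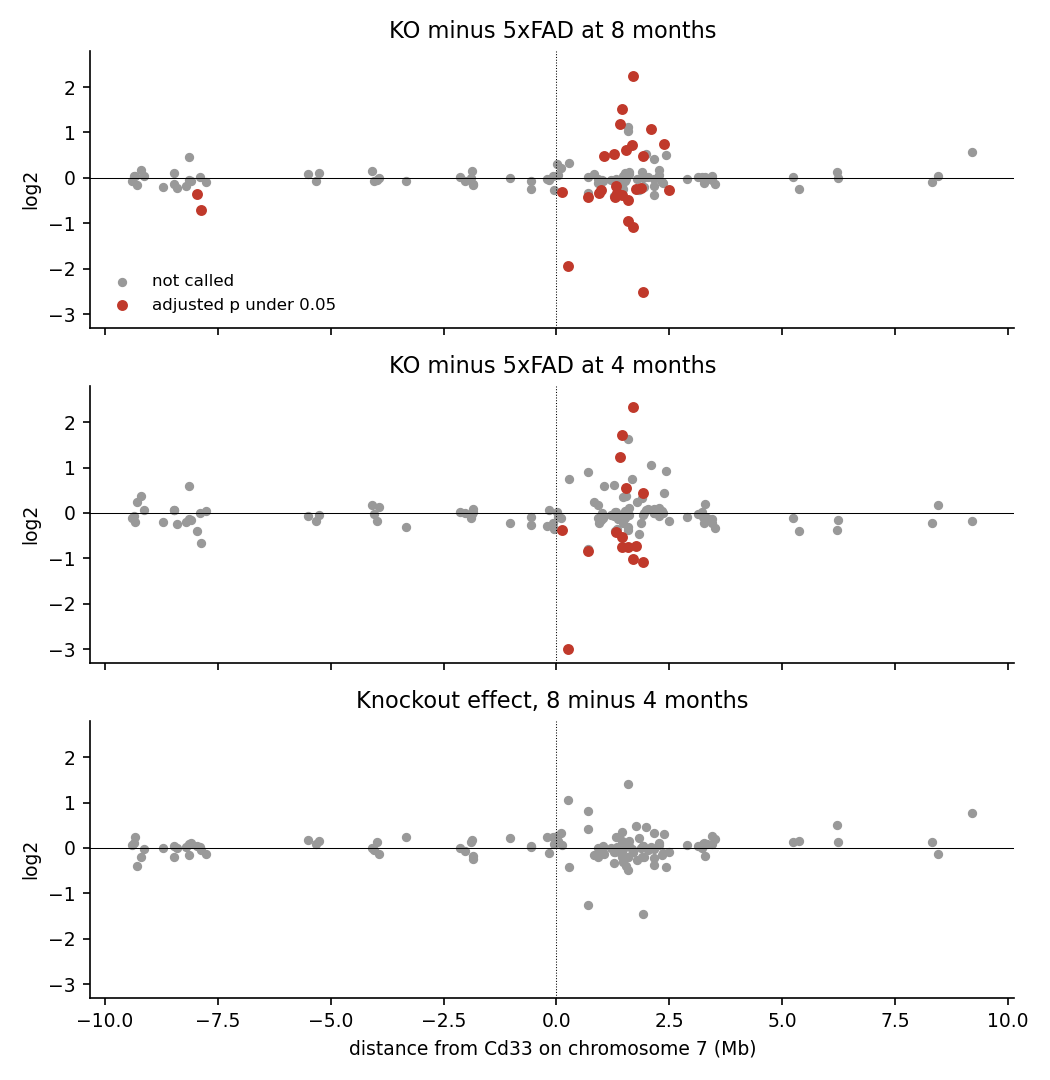
Log2 effects of tested genes against distance from Cd33 in Mb, at 8 months, at 4 months and as the difference between the ages, with Cd33 itself omitted. Most of the called genes of this window sit within 2 Mb of Cd33 in the panels for single ages, and in the panel of differences Klk8 at 1.06 and Ftl1 at -1.45 stand away from 0.

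In all, 32 genes were called at both ages, 10.96% of the 8-month calls and 33.0% of the 4-month calls, and all 32 had the same sign. Of these, 15 lay within 10 Mb of Cd33 and 17 elsewhere or without a position. Calls at both ages in each of the 36 fits with 1 library left out were kept by 15 genes, 11 of them within 10 Mb, among them Cd33, Klk8, Slc6a16, Gm15545, Cpt1c, Cd37, 2410002F23Rik, Fcgrt, Dhdh and Irf3. The other 4 were Ftl2, a second identifier named Slc6a16 that the annotation does not place, and the miRNA gene models Gm23062 and Gm24098. The difference lay below 0 for 16 of the 17 genes elsewhere or unplaced, Lefty1 being the exception, and for 6 of the 15 within 10 Mb, beside 46.4% of all genes tested. The 32 genes were chosen by calls at both ages, and the median SE was 0.08 at 8 months and 0.12 at 4 months, so a call at 4 months took a larger effect, and these counts are a description only. Map3k6, a stress-activated kinase gene, had effects of 1.11 at 8 months and 1.96 at 4 months, and was called in 25 and 34 of the 36 fits at these ages. Plat, which encodes tissue plasminogen activator, had 1.23 and 1.71, and Ndrg1, a gene induced by hypoxia, 0.91 and 1.63. Nostrin, a gene of endothelial cells, had 1.21 and 1.72. At 4 months Map3k6 followed the endothelial sums, since knockout replicates 2 and 3 held 9.59 and 9.97 RPKM and replicates 1 and 4 held 1.68 and 1.38 RPKM. What part endothelial RNA has in these genes was not tested.

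Away from Cd33, the effects at 1 age were compared with their size at the other. The 263 genes called at 8 months outside the 10 Mb window had a median absolute effect of 0.83 at 8 months and, in the same direction, 0.81 at 4 months, with 257 of the 263 of the same sign. The 81 genes called at 4 months had a median effect of 0.15 at 8 months in the 4-month direction, against 0.56 at 4 months, with 76 of the 81 of the same sign. Each set was chosen by its calls at one of the ages, so these values are a description.

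Outside the neighbourhood of Cd33, the genes with the smallest p had modest differences, none of them called in the fit of the 4 groups. Tgds, which encodes a dehydratase of sugar nucleotides, ran over 2.87, 3.18 and 3.93 RPKM in knockout and 2.38, 3.01 and 3.66 RPKM in 5xFAD microglia at 8 months. At 4 months the knockout libraries held 3.17, 3.23, 2.92 and 3.27 RPKM and the 5xFAD libraries ran over 3.48, 4.30 and 5.20 RPKM. The groups overlapped at 8 months and not at 4 months. Its effect was 0.12 at 8 months and -0.39 at 4 months (adjusted p = 0.341 and 0.0309), and its difference was 0.50 ± 0.11 (SE, adjusted p = 0.128). The difference was called with all groups in the fit (adjusted p = 0.0416), with array weights (adjusted p = 0.00541) and with the title number as a term (0.53, adjusted p = 0.0103). Spns2, the exporter of sphingosine 1-phosphate, ran over 9.11, 11.001 and 13.9 RPKM in knockout and 7.58, 9.69 and 11.5 RPKM in 5xFAD microglia at 8 months. At 4 months its knockout libraries held 11.2, 10.8, 9.93 and 11.03 RPKM, below the 5xFAD range of 12.3 to 15.9 RPKM. The difference was 0.50 ± 0.11 (SE, adjusted p = 0.193), between effects of 0.20 and -0.31 that were not called at either age. It was called with a separate fit for each table (adjusted p = 0.0290), with array weights (adjusted p = 0.00541) and with the title number as a term (0.52, adjusted p = 0.0300). Dph2, which acts in diphthamide synthesis, had a difference of 0.40 ± 0.09 (SE, adjusted p = 0.193). It held 1.86, 1.53, 1.51 and 2.03 RPKM in the knockout libraries at 4 months, against 2.39, 2.53 and 3.16 RPKM as the lowest, median and highest in 5xFAD microglia, an effect of -0.47 that was called (adjusted p = 2.52e-04). Ankmy2 had a difference of 0.37 ± 0.09 (SE, adjusted p = 0.223). Dph2 and Ankmy2 were called with array weights (adjusted p = 0.00184 and 0.00922).

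On the negative side, after Ftl1, Olfr110 had a difference of -0.60 ± 0.15 (SE, adjusted p = 0.431), and -0.68 with the title number as a term (adjusted p = 0.0464). Kif3c, a kinesin motor subunit, had -0.31 ± 0.08, and Slc44a1, a choline transporter, -0.35 ± 0.10 (SE, adjusted p = 0.479 for both). Slc44a1 was called with the title number as a term (-0.45, adjusted p = 0.0140), and with array weights all 3 of these genes were called (adjusted p = 0.00355, 0.00719 and 0.00922 for Olfr110, Kif3c and Slc44a1). Zbtb16, a transcriptional repressor induced by glucocorticoids, had -1.39 ± 0.39 (SE, adjusted p = 0.479), and -2.17 with array weights (adjusted p = 0.00184). It held 1.02, 7.45, 7.79 and 1.04 RPKM in the knockout libraries at 4 months and 0.21, 0.46 and 1.71 RPKM as the lowest, median and highest in 5xFAD microglia. At 8 months it ran over 0.72, 1.44 and 2.15 RPKM in knockout and 0.46, 1.01 and 1.53 RPKM in 5xFAD microglia. The high values at 4 months were those of knockout replicates 2 and 3, the libraries with the higher endothelial sums, and the part of that difference between libraries was not tested.

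For the DAM genes the knockout effect had a lower value at 8 than at 4 months, and no gene passed the test. All 27 tested genes of the 28 in a stage 2 list, the TREM2-dependent set, had a difference below 0, beside 46.4% of all genes tested. Their median was -0.37, beside 0.01 over all genes, and ran between -0.47 and -0.30 with any 1 library left out. None was called, and 8 of the 27 lay under an unadjusted 0.05, beside 6.06% of all genes. At 8 months the median effect was -0.08 and 6 of the 27 lay above 0, beside 44.5% of all genes. At 4 months it was 0.28 and all 27 lay above 0, beside 41.1% of all genes. The 9 genes of the stage 1 list, those that do not need TREM2, had a median difference of -0.27, and all 9 lay below 0. With the title number as a term the stage 2 median was -0.58, and 5xFAD replicates 1, 4, 6, 8 and 11 did not enter the 4-month effect. The same genes move together in a library, so the counts are not counts of independent events. In these bulk samples fewer cells of a type and less RNA per cell cannot be told apart.

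Itgax, the CD11c integrin chain that marks DAM, had the smallest p of the list. At 8 months it ran over 107, 159 and 208 RPKM in knockout and 125, 205 and 270 RPKM in 5xFAD microglia. In the 4-month knockout Itgax stood at 76.2, 101, 76.4 and 50.8 RPKM and the 5xFAD libraries ran over 22.3, 51.5 and 75.1 RPKM. Groups overlapped at both ages. The effect was -0.31 ± 0.17 at 8 months and 0.71 ± 0.25 at 4 months (SE, neither called), and the difference was -1.02 ± 0.30 (SE, unadjusted p = 0.00169, adjusted p = 0.479 over all genes). Within title numbers the effect ran between -0.57 and 0.11 at 8 months and between 0.85 and 1.38 at 4 months, and with that number as a term the difference was -1.39 (adjusted p = 0.00641). The 4-month side of these values rests on 5xFAD replicates 7, 9, 10 and 13 only. Igf1, the growth factor, had a difference of -0.79 ± 0.29, Ank, a phosphate and ATP exporter, -0.66 ± 0.25, and Cadm1, an adhesion molecule, -0.42 ± 0.14 (SE). Igf1 was called with the title number as a term (-1.10, adjusted p = 0.0103). With array weights Itgax, Igf1 and Cadm1 were also called.

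Apoe, which encodes the lipid carrier apolipoprotein E and belongs to the stage 1 list, ran over 2653, 5835 and 8432 RPKM in knockout and 3194, 5542 and 7289 RPKM in 5xFAD microglia at 8 months. At 4 months the knockout libraries held 2843, 2797, 2746 and 1685 RPKM, and the 5xFAD libraries ran over 619, 1456 and 2417 RPKM. Of the 4 knockout libraries at 4 months 3 lay above all 5xFAD libraries, and replicate 4 lay within their range. The effect was 0.10 at 8 months and 0.90 at 4 months, and the difference -0.80 ± 0.35 (SE, adjusted p = 0.769). With the title number as a term the difference was called, at -1.23 (adjusted p = 0.0282). As the median over the stage 2 genes, each set against its 5xFAD mean of the same age, the knockout libraries at 4 months stood at 0.33, 0.35, 0.28 and 0.09 log2 units. This was within the 5xFAD range of -0.42, in replicate 13, to 0.51, in replicate 4. With the title number as a term, replicate 13 enters the 4-month effect and replicate 4 does not. At 8 months the knockout libraries ran between -0.49 and 0.12, beside -0.51 to 0.28 in 5xFAD microglia.

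**Figure D4:**
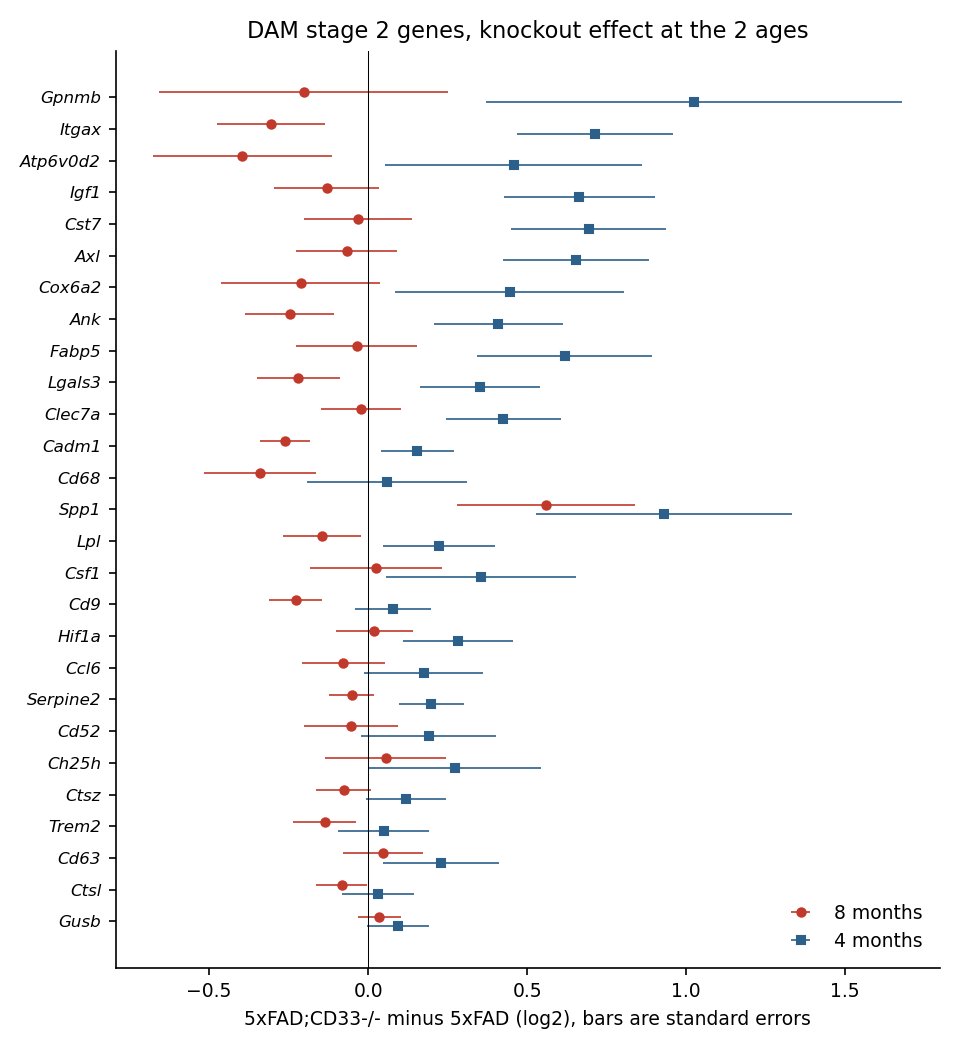
Log2 knockout effects with SE bars for the 27 tested genes of the DAM stage 2 list at 8 and at 4 months. The 4-month point lies to the right of the 8-month point for all 27 genes, and Itgax, at -0.31 and 0.71, is among those with the widest gap.

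Genes of the interleukin-1 family and inflammasome had no common direction. Of the 16 tested of 18, 9 differences lay below 0 and 7 above, beside 46.4% and 53.6% of all genes. Their median of -0.09 ran between -0.17, without knockout replicate 4 at 4 months, and -0.0076, without 5xFAD replicate 10 at 8 months. Il1b, the cytokine itself, ran over 204, 381 and 953 RPKM in knockout and 78.1, 336 and 845 RPKM in 5xFAD microglia at 8 months. In the 4-month knockout Il1b stood at 341, 334, 256 and 121 RPKM and the 5xFAD libraries ran over 56.4, 103 and 175 RPKM. Of the 4 knockout libraries 3 lay above the 5xFAD range at 4 months, and the groups at 8 months overlapped widely. Its effects were 0.41 and 1.17 and its difference -0.76 ± 0.53 (SE, adjusted p = 0.862). Il1rn, which encodes the receptor antagonist, held 5.52, 6.89, 6.68 and 2.72 RPKM in the knockout libraries at 4 months and 1.24, 1.64 and 3.50 RPKM as the lowest, median and highest in 5xFAD microglia. It ran over 4.11, 7.49 and 17.4 RPKM in knockout and 2.15, 8.17 and 12.3 RPKM in 5xFAD microglia at 8 months, a difference of -1.09 ± 0.42 (SE, adjusted p = 0.730). Aim2, a DNA sensor, and Gsdmd, the pore-forming gasdermin D, went the other way, with differences of 0.36 ± 0.13 and 0.31 ± 0.11 (SE). Aim2 was called lower at 4 months (-0.43, adjusted p = 0.0384).

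Among 16 chemokines, 11 differences lay below 0, beside 46.4% of all genes, with a median of -0.04. With 1 library left out the median ran between -0.20, without knockout replicate 4 at 4 months, and 0.07, without knockout replicate 1 of that age, with 7 to 12 below 0. Cxcl1, a neutrophil attractant, held 10.9, 17.7, 20.99 and 6.51 RPKM in the knockout libraries at 4 months, against 2.36, 4.12 and 8.91 RPKM as the lowest, median and highest in 5xFAD microglia. At 8 months it ran between 1.30 and 18.2 RPKM in knockout and between 1.15 and 15.2 RPKM in 5xFAD microglia. Replicate 4 was within the 5xFAD range at 4 months and the other 3 were above it, and the difference was -1.19 ± 0.62 (SE, adjusted p = 0.815). Ccl12, a monocyte attractant, had a difference of 0.69 ± 0.34 (SE).

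Homeostatic and interferon genes had medians of the difference near 0, whose sign turned on single libraries. Of 25 homeostatic genes 19 differences lay above 0, beside 53.6% of all genes, with a median of 0.05, and the median effect was -0.18 at 8 months and -0.22 at 4 months. With 1 library left out the median difference ran between -0.01, without knockout replicate 3 at 4 months, and 0.18, without knockout replicate 4 at 4 months, with 1 to 13 of the 25 below 0. Within title numbers the homeostatic effect, from the median over the list in each library, had a median of -0.06 at 8 months and -0.26 at 4 months. With that number as a term the median difference was 0.19. Siglech, a microglial receptor of the CD33 family, had a difference of 0.23 ± 0.12, and Txnip, an inhibitor of thioredoxin, one of 0.33 ± 0.20 (SE). Of 28 interferon-response genes 17 differences lay above 0, also with a median of 0.05. Their median effect was 0.26 at 8 months and 0.24 at 4 months, with none called. At these ages 28 and 24 of the 28 effects lay above 0, beside 44.5% and 41.1% of all genes. Leaving out 1 library gave a median difference between -0.04, without knockout replicate 4 at 4 months, and 0.13, without knockout replicate 3 of that age, and the title number as a term gave -0.21, with 24 of 28 below 0. Over the 17 tested genes of a glycolysis and hypoxia list 14 differences lay below 0, beside 46.4% of all genes, with a median of -0.22. Of the 17 genes 4 lay under an unadjusted 0.05, beside 6.06% of all genes. These were Bnip3, a mitophagy receptor, at -0.49 ± 0.20, and the glycolytic enzyme genes Gpi1, Pkm and Pfkl at -0.41 ± 0.20, -0.33 ± 0.16 and -0.30 ± 0.13 (SE).

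**Figure D5:**
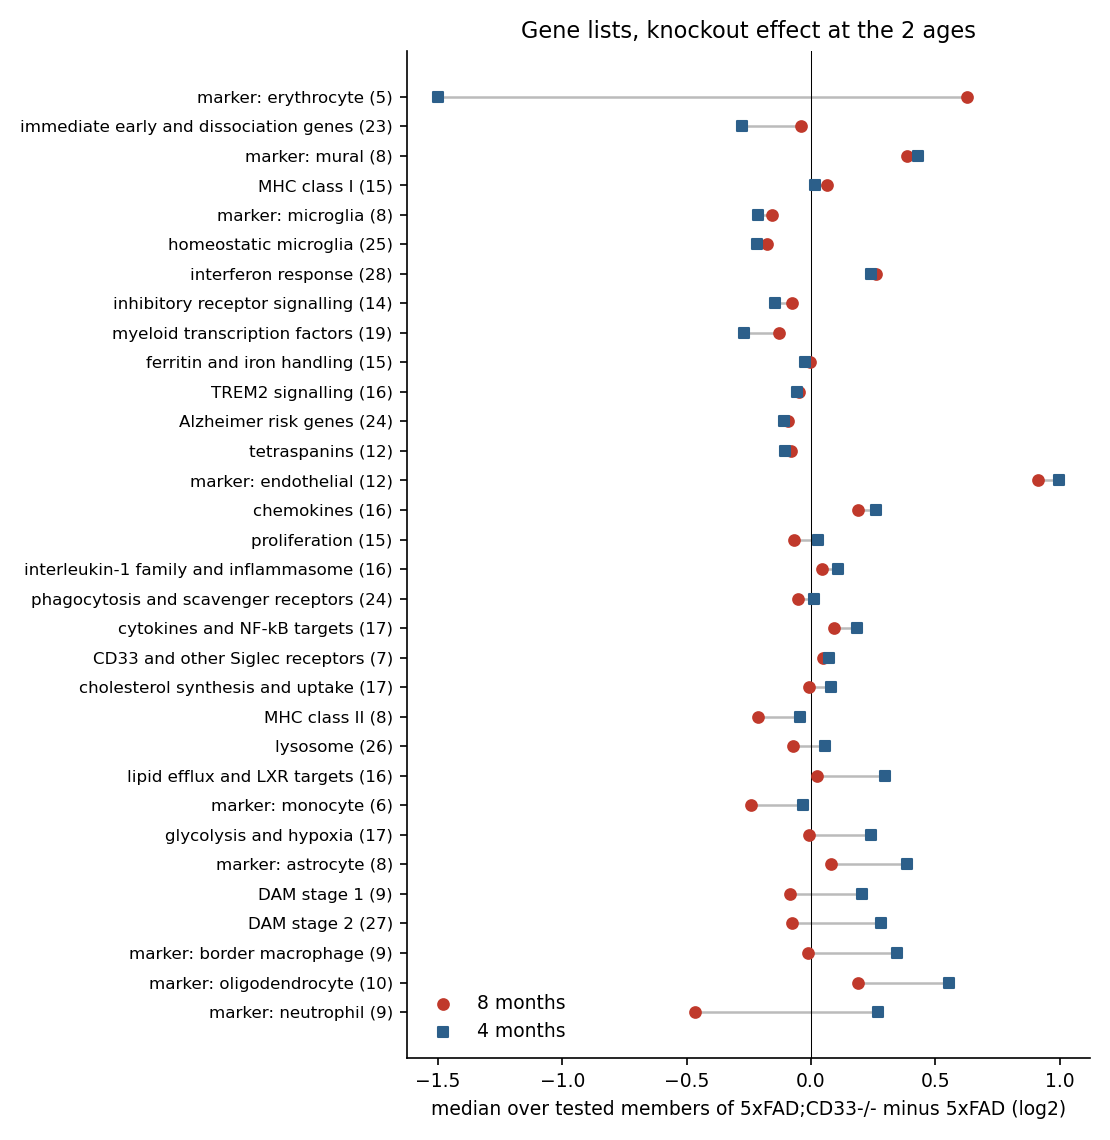
Median log2 knockout effect at 8 and at 4 months over each gene list with 5 or more tested members. The number tested is in brackets, lists are ordered by their median difference of effects, and the sex markers are omitted. The erythrocyte markers lie at 0.63 at 8 months and -1.50 at 4 months. For the neutrophil, oligodendrocyte, border macrophage and DAM stage 2 lists the 8-month point lies to the left of the 4-month point.

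Markers of other cells also had differences between the ages, none called. All 5 tested erythrocyte markers of 6 had positive differences, beside 53.6% of all genes, with a median of 2.07. All 5 lay under an unadjusted 0.05, beside 6.06% of all genes. Hbb-bs, a beta globin, ran over 10.2, 34.4 and 99.4 RPKM in knockout and 5.42, 17.2 and 44.7 RPKM in 5xFAD microglia at 8 months. At 4 months it held 8.49, 16.3, 8.26 and 5.404 RPKM in the knockout libraries and ran over 11.3, 28.5 and 67.2 RPKM in 5xFAD microglia. The groups overlapped at both ages, and the difference was 2.23 ± 0.63 (SE, adjusted p = 0.479). Summed erythrocyte markers were 18.2 to 177 RPKM in knockout and 10.8 to 83.3 RPKM in 5xFAD microglia at 8 months. At 4 months they were 10.1 to 29.5 RPKM in knockout and 22.6 to 130 RPKM in 5xFAD microglia. Within title numbers the erythrocyte effect ran between -0.38 and 1.97 at 8 months and between -1.29 and 0.25 at 4 months.

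Endothelial markers had positive median effects at both ages, 0.91 at 8 months, where 9 of the 12 were called higher beside 1.98% of all genes, and 1.00 at 4 months, where none was called beside 0.359% of all genes. Their summed level was 287, 621 and 1069 RPKM as the lowest, median and highest in knockout and 181, 303 and 564 RPKM in 5xFAD microglia at 8 months. At 4 months it was 487, 1125, 1164 and 474 RPKM in the knockout libraries and ran over 200, 360 and 1295 RPKM in 5xFAD microglia, whose highest was replicate 1. The median difference between ages was -0.02, and ran between -0.24, without knockout replicate 4 at 4 months, and 0.20, without replicate 3 of that age, with 2 to 10 of 12 below 0. It was 0.60 without both replicates 2 and 3, and -0.50 with the title number as a term.

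Oligodendrocyte markers, which ran with the DAM genes in sign, had 9 of 10 differences below 0, beside 46.4% of all genes, and a median of -0.47. Without knockout replicate 2 at 4 months the median was -0.26, and without replicates 2 and 3 of that age -0.07, with 7 of 10 below 0. Mobp, a myelin protein gene, had a difference of -0.87 ± 0.34 (SE) and was called higher at 4 months (1.13, adjusted p = 0.0487). Mbp had -0.50 ± 0.18 (SE). The summed markers were 217, 258, 235 and 175 RPKM in the knockout libraries at 4 months and 151 to 213 RPKM in 5xFAD microglia, and 107 to 265 RPKM in knockout and 93.3 to 175 RPKM in 5xFAD microglia at 8 months. All 9 neutrophil markers and all 9 border macrophage markers had differences below 0, beside 46.4% of all genes, with medians of -0.67 and -0.42. Within title numbers the neutrophil effect ran between -1.56 and 1.14 at 8 months and between -1.03 and 0.93 at 4 months. The border macrophage median was -0.27 without knockout replicate 3 at 4 months and -0.07 without replicates 2 and 3, with 6 of 9 below 0. The summed neutrophil markers were 199.6 to 2608 RPKM in knockout and 342 to 1761 RPKM in 5xFAD microglia at 8 months, and 111 to 370 RPKM in knockout and 44.1 to 652 RPKM in 5xFAD microglia at 4 months. None of the listed marker genes was at 0 in all libraries of a group, and at 4 months 7 of 8 neuron markers and 10 of 11 T and NK cell markers stayed under 1 RPKM in all libraries. The part of these cells in the DAM, interleukin-1 and other differences was not tested.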

How the data were processed

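Per the labels' protocols, microglia were isolated from brain by CD11b and CD45 sorting, and libraries were made with a stranded mRNA kit. The submitters' processing notes name STAR, HTSeq and edgeR and the builds mm10 and GRCm38, with no versions. For the 36 libraries used, the authors deposited RPKM values for 39179 genes in 1 table per age. All values came out as whole reads within a tolerance of 0.05 reads, and these reads gave the depths. RPKM values were tested as log2(RPKM + 0.5) with limma 3.58.1 in R 4.3.3, with 1 mean for each of the 4 groups, trended and robust variances, and Benjamini-Hochberg adjustment over the 12812 genes with at least 1 RPKM in 4 or more of the 36 libraries. The fit was also run on simulated counts, drawn independently for each library without batch, sex or cell-type differences. That run cannot show how the calls depend on such differences between libraries. Positions, and the sequences aligned for Ftl1 and Ftl2, are from GENCODE M21 and GRCm38, where 37693 of the genes were found. Tables and drawings used Python 3.11.15, pandas 2.3.3, Biopython 1.88 and matplotlib 3.10.9.

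Most genes are named by rule. The rule took Cd33, Trem2 and the 5 with the smallest p of the difference in each direction (ordinary symbol, mean of at least 2 RPKM in a group). It also took called genes within 10 Mb of Cd33, the 10 largest called at both ages, up to 4 per described list, and Il1b, Il1rn and Cxcl1. Klk6, Lefty1, Plat, Ndrg1, Nostrin, Fkbp5, Gm24644 and the label checks Xist and Ddx3y are named outside the rule. Members, genes and lists were chosen with earlier results of these data known, and no list was tested. Of 37 lists, 13 are described in the main results, with the neuron, T and NK cell and microglia markers given as levels. The immediate early and dissociation-response list and the lysosomal list are described besides these, under other observations. The alternatives changed pseudocount, filter, scaling, weights, covariates and libraries. Some genes and sequences are not reported here.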

Additional observations from a re-analysis of the deposited data

Results flagged for a closer look

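Within groups of 4 to 10 libraries, 46 sets of values printed for single genes were examined for a library far from the others, by the gap to its neighbour over the range, and 6 stood out. Chance gives about 1 in 20. In knockout microglia at 4 months, Apoe in replicate 4 was lowest of 4, at 1685 RPKM. In 5xFAD microglia at 4 months, Ftl1 in replicate 10 was lowest of 9, at 172 RPKM, and so was the sum of Ftl1 and Ftl2 in the same library, at 171.7 RPKM. Ftl2 in replicate 6 was highest of 9, at 0.128 RPKM. Fcgrt in replicate 1 was highest, at 118 RPKM. Dph2 in replicate 7 was highest, at 3.16 RPKM.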

How the results depend on the processing

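With any 1 library left out, 0 to 2 genes were called for the difference of effects, 27 to 753 at 8 months and 22 to 1161 at 4 months. The difference gave 2 calls with no filter on low values, 4 with a separate fit for each table, 3 with all groups, 78 with the title number as a term (18 higher, 60 lower) and 581 with array weights (367 higher, 214 lower). The 8-month number was 41 with no filter, 190 with a mean of at least 2 RPKM, 165 with voom, 472 with separate fits, 641 with array weights, 607 with all groups, 24 with the endothelial term, 37 with the Y-linked term, and 36 without both the knockout library holding Cd33 and the one with Xist and Y-linked reads. The 4-month number under these was 182 (no filter), 26 (separate fits), 4819 (array weights), 409 (all groups), 1888 (title number), 28 (endothelial term) and 22 (those libraries left out). After seeing the data, leaving out knockout replicate 7 and 5xFAD replicate 1 at 8 months gave 25 at 8 months, and leaving out knockout replicates 2 and 3 at 4 months gave 10 at 4 months. The cause of these shifts was not tested. Each group held libraries with Xist and libraries with Ddx3y, so the sexes were mixed. In title number 17 the 5xFAD replicates 6 and 7 held Ddx3y at 9.54 and 9.48 RPKM. Knockout replicates 5 and 7 of that number held Xist at 12.2 and 13.3 RPKM, so genotype and sex cannot be told apart there.

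Replicate numbers did not pair the libraries: deviations of same-numbered libraries correlated between -0.48 and 0.60 over 11 pairs at 8 months, 4 of them over 0.1, and at -0.52 and -0.11 over 2 pairs at 4 months. With the replicate block, 0, 23 and 3 genes were called for the difference, 8 months and 4 months. Its 4-month effect rests on replicates 1 and 4 alone, the numbers that both genotypes share. Knockout replicates 2 and 3 do not enter it, and 5xFAD replicate 1, with the highest endothelial sum of its group, does. The stage 2 DAM median was -0.16 with the block, with 23 of 27 below 0, and the block gave medians of 0.08 for oligodendrocyte, 0.46 for border macrophage, 1.49 for endothelial, 0.52 for interferon and -0.23 for homeostatic genes. Under the block these differences changed sign: Map3k6 0.76, the unplaced Slc6a16 0.066, Cxcl14 0.16, Siglech -0.042, Txnip -0.11, Cmpk2 0.51, Aim2 -0.061, Gsdmd -0.051, F13a1 0.46, Cd163 0.28, Mrc1 0.15, Cd209a 0.43, Flt1 1.14, Pltp 1.24, Emcn 1.16 and Zbtb16 0.21. So did the placed Slc6a16 with pseudocount 1 (0.019), array weights (0.057) and knockout replicate 7 and 5xFAD replicate 1 at 8 months left out (0.073), and Cldn5 with array weights (-0.22) and the title number (-0.24). Without knockout replicates 2 and 3 at 4 months Map3k6 was 0.32, Cmpk2 0.17, Flt1 0.24, Pltp 0.36 and Emcn 0.46. With 1 library left out the placed Slc6a16 ran between -0.18 and 0.046 and Emcn between -0.50 and 0.042. Of the 71 differences recomputed for named genes, 53 changed sign under no alternative.

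edgeR's quasi-likelihood test on recovered reads, planned as an alternative, was not run. voom was run on those reads. The 4 knockout libraries at 4 months limit the precision of the difference, whose median SE was 0.14 against 0.08 for the effect at 8 months and 0.12 at 4 months. Age and table cannot be told apart, and title numbers that hold both genotypes number 8 at 8 months and 3 at 4 months.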

Other observations

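Fkbp5, a chaperone gene induced by glucocorticoids, was looked at after its values were seen. It held 14.2, 30.02, 32.9 and 12.5 RPKM in knockout replicates 1 to 4 at 4 months, and 9.13, 9.999 and 13.95 RPKM as the lowest, median and highest in 5xFAD microglia. At 8 months it ran over 8.17, 10.2 and 14.5 RPKM in knockout and 7.13, 9.11 and 12.1 RPKM in 5xFAD microglia. Replicates 2 and 3 were high for Fkbp5, as for Zbtb16, Map3k6 and the endothelial markers. The 4-month effect was 0.95 ± 0.17 (SE, adjusted p = 0.00242), and the difference of effects was -0.73 ± 0.21 (SE, adjusted p = 0.479).

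Of 23 immediate early and dissociation-response genes, 19 had a difference above 0, beside 53.6% of all genes tested, with a median of 0.30. The median was 0.16 and 0.20 without 5xFAD replicate 4 or 5 at 8 months and 0.19 without knockout replicate 3 at 4 months, and 1 to 6 of the 23 lay below 0 with any 1 library left out. It was 0.17 with the title number as a term and 0.0075 with the replicate block. Their median effect was -0.04 at 8 months and -0.28 at 4 months, and none was called or lay under an unadjusted 0.05. Of 26 lysosomal genes, 21 had a difference below 0, beside 46.4% of all genes, with a median of -0.17. Under an unadjusted 0.05 lay 1 of the 26, beside 6.06% of all genes.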
